A study of Mus musculus with 9 samples.

Results

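The 9 genes described here belong to the p53 and DNA damage response and were followed across 9 nuclear RNA libraries from mouse hippocampal pyramidal cells. They were chosen by name, as targets of the transcription factor p53: Cdkn1a, Bax, Bbc3, Ddb2, Aen, Rrm2b, Trp53inp1, Tnfrsf10b and Gadd45a. All 9 are among the 31052 gene symbols of the deposited table. They serve as a readout of cell stress in nuclei that had been tagged with light. The place group held 5 libraries, from place cells, neurons that fire when the animal is in certain positions, identified by two-photon imaging while mice navigated, and the silent group held 4, from cells classed as silent. All 9 libraries carry the genotype label WT, and in both groups the nuclei were phototagged after imaging in vivo, then isolated and amplified with the SMART-Seq mRNA LP kit. The labels do not state age, sex or the number of nuclei per library. Since tagged nuclei make up both groups, a comparison with untagged nuclei was not analysed here, and only place against silent libraries can be tested.

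The p53 protein is held low in resting cells by the ubiquitin ligase Mdm2. When DNA breaks or other damage activate the kinases Atm and Atr, p53 accumulates, binds its response elements near target genes and raises their transcription. The targets stop the cell cycle (Cdkn1a, Gadd45a), repair damage and supply nucleotides (Ddb2, Rrm2b), or set off cell death (Bax, Bbc3, Tnfrsf10b, Aen), and Trp53inp1 feeds back on p53 itself. Neurons no longer divide, so in them the pathway is known chiefly for damage signalling and neuronal death.

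A p53 response element is built from copies of a decamer, the p53 half-site. The stretches that follow show where exact half-sites lie near the starts of the genes, because this element is what the 9 genes are chosen to share. Of the 9 genes, 5 had promoter windows in the RefSeq table at hand (GRCm38.p6, 250 bases before to 50 after each start, 9 windows in all), and 4 of these genes held at least 1 exact half-site, in 5 windows, of which both Aen windows overlap and hold the same site. Over all 32851 windows of 300 bases, 8.36% held one. The half-site reads the same on both strands. Each stretch runs 5′ to 3′ on the strand of the gene, with half-sites in capitals.
Cdkn1a, chr17:29090881-29090962, + strand: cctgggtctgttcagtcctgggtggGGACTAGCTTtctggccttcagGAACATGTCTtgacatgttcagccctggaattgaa
Bax, chr7:45467065-45467124, - strand: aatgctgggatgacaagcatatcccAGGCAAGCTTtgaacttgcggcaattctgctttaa
Aen, chr7:78895912-78895971, + strand: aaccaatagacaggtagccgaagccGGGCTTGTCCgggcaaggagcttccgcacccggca
Gadd45a, chr6:67037413-67037472, - strand: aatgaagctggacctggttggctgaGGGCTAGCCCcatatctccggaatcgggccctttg
In the Cdkn1a stretch the half-sites began 73 and 51 bases before 1 of its RefSeq starts, with 12 bases between them. The window of the other Cdkn1a start held no exact half-site. The single half-sites began 201 bases upstream of the start in Bax, 121 in Aen and 40 in Gadd45a. From the other RefSeq start of Aen the same half-site lies 10 bases downstream. The Bbc3 windows held none, and these matches are a description of letters, with binding not measured here. The submitters' processing notes name the GRCm39 build, so these GRCm38 positions are not those of the counted reads.

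Whole reads were worked back from the deposited normalized signal, and levels are given as reads per 1000000 recovered reads of the library (RPM). In units of 1000000 reads, recovered depth ran from 14.05 to 22.4 and averaged 18.5 ± 2.48 over the 5 place and 18.2 ± 3.72 over the 4 silent libraries (SD). Genes with at least 1 read numbered 16612 to 20989 in place and 14175 to 17898 in silent libraries, with silent replicate 1 the lowest. Where a gene had no reads, a limit of 3 reads allows a level of up to 0.134 to 0.214 RPM, depending on the library. Such limits and the intervals given later cover counting error only, because amplified reads are not independent molecules. Markers of pyramidal neurons (8 genes) summed to 4773 to 6019 RPM in place and 4472 to 6119 in silent libraries. Oligodendrocyte markers (11 genes, all with reads in some library) summed to 193 to 3267 RPM in place and 120 to 549 in silent libraries, and astrocyte markers (8 genes) to 207 to 2829 and 196 to 584, with both highest in place replicate 3. The sum of 4 Y-linked genes was at 737 RPM or more in 1 place and 4 silent libraries and at most 0.260 in the other 4 place libraries. Xist, which is expressed from the inactive X chromosome of females, stood at 772 to 1441 RPM in those 4 place libraries and at 0 to 2.94 in the Y-positive ones, except silent replicate 1, which carried both (Y-linked sum 771, Xist 317). Sex and group thus largely coincide, and within these libraries their contributions cannot be told apart. In libraries built from such nuclei, fewer cells with a transcript and less RNA per cell cannot be told apart either.

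**Figure D1:**
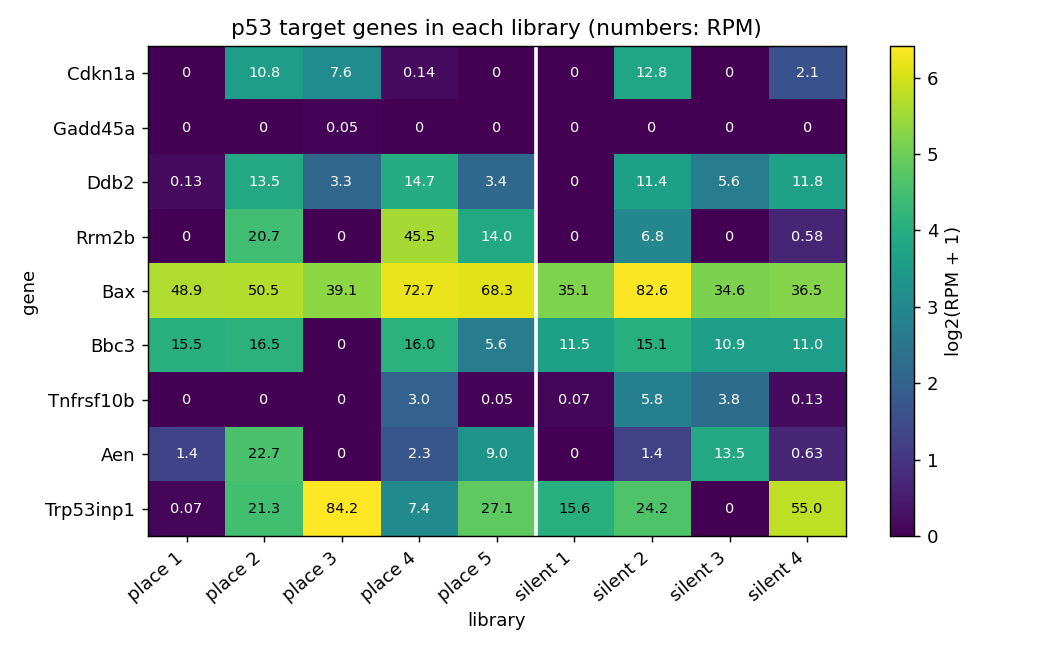
Level of each of the 9 p53 target genes (rows) in each library (columns, place left of the white line, silent right), coloured by log2(RPM + 1) with the RPM printed in each cell and 0 where there were no reads. Bax is filled in every library, at 34.6 to 82.6 RPM, Gadd45a holds a single value of 0.0519 RPM, and the other rows are broken by empty or near-empty libraries.

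Most of the 9 genes were patchy: only Bax had reads in all 9 libraries. Bbc3, Ddb2 and Trp53inp1 had reads in 8 libraries, Aen in 7, Tnfrsf10b in 6, Cdkn1a and Rrm2b in 5, and Gadd45a in 1. Among the 14142 genes tested (1 RPM or more in at least 4 libraries), 38.4% had such a gap. Of the 7 members tested, all but Bax had one, a larger share than that background. The background is not matched for level, so this cannot be read as a trait of the members. Over the whole table of 31052 gene symbols, 8894 had a value above 0 in every library. Levels are compared only within a gene, since they are not scaled by gene length.

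Cdkn1a encodes p21, the inhibitor of cyclin-dependent kinases and the best known p53 target. It stood at 0, 10.8, 7.63, 0.137 and 0 RPM in place replicates 1 to 5 and at 0, 12.8, 0 and 2.06 in silent replicates 1 to 4. The value in place replicate 4 rests on 3 reads (exact 95% interval 0.0282 to 0.399 RPM). Each group thus mixed libraries without Cdkn1a and libraries at several RPM, and the groups overlapped. Means were 3.71 ± 5.15 over the 5 place and 3.72 ± 6.14 over the 4 silent libraries (SD, the same n for all genes that follow), and the log2 fold, place minus silent, of RPM + 1 was 0.02 ± 1.05 SE (limma adjusted p = 0.998 over all genes tested). Its 95% interval, from -2.17 to 2.21, leaves room for a difference of several fold in either direction. In the GENCODE M21 annotation an unnamed transcript model on the opposite strand overlaps Cdkn1a exons, and the strand setting of the counting is not given.

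Gadd45a, a stress-induced nuclear protein that slows the cell cycle and assists repair, was all but absent. It had 1 read in place replicate 3 (0.0519 RPM, exact 95% interval 0.00131 to 0.289) and no reads in the other 8 libraries. With 3 reads as the limit, its level in those libraries lay under 0.134 to 0.214 RPM. Gadd45a did not pass the filter of 1 RPM in at least 4 libraries and was not tested, and a transcript on the opposite strand overlaps its exons.

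Among the repair genes, Ddb2 encodes the damage-recognition subunit of nucleotide excision repair for ultraviolet lesions. It stood at 0.131, 13.5, 3.32, 14.7 and 3.40 RPM in place replicates 1 to 5 and at 0, 11.4, 5.58 and 11.8 in silent replicates 1 to 4. Both groups ran from none or nearly none to over 11 RPM. Means were 7.02 ± 6.63 and 7.19 ± 5.57, with a log2 fold of -0.05 ± 1.15 SE (limma adjusted p = 0.996). Exons of Ddb2 overlap those of Acp2 on the opposite strand, so its reads are uncertain.

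Rrm2b encodes p53R2, the ribonucleotide reductase subunit that supplies deoxynucleotides outside S phase, and it had the largest log2 fold of the 7 members tested. It stood at 0, 20.7, 0, 45.5 and 14.0 RPM in place replicates 1 to 5 and at 0, 6.78, 0 and 0.581 in silent replicates 1 to 4. The 3 place libraries with Rrm2b were all above the highest silent library, while the other 2 place libraries had no reads, so the groups overlapped. Means were 16.03 ± 18.8 and 1.84 ± 3.30. The log2 fold was 1.87 ± 1.24 SE (95% interval -0.73 to 4.47, limma adjusted p = 0.895). The 3 place libraries with Rrm2b were also the 3 with the most genes detected of all 9 (18402 to 20989). With that number in the fit, an alternative added after the data were seen, the fold was -0.70 (limma unadjusted p = 0.587). Genes detected also differed by group, averaging 18601.8 in place and 16089.5 in silent libraries, so this fit cannot separate that number from group. Its part in the Rrm2b fold was not tested. The antisense gene Gm49085 overlaps Rrm2b exons.

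Bax, the pore-forming member of the BCL2 family that opens the outer mitochondrial membrane, was the steadiest of the 9 genes, with a coefficient of variation of 34.9% over the 9 libraries against 48.5% or more for the others. Levels were 48.9, 50.5, 39.1, 72.7 and 68.3 RPM in place replicates 1 to 5 and 35.1, 82.6, 34.6 and 36.5 in silent replicates 1 to 4. Silent replicate 2 was the highest of all, and the other 3 silent libraries were below every place library. Means were 55.9 ± 14.1 and 47.2 ± 23.6, and the log2 fold was 0.31 ± 0.47 SE (95% interval -0.67 to 1.29, limma adjusted p = 0.951). With silent replicate 2 left out, the fold was 0.61, and no member passed the threshold there. Bax shares exons with Gm45808 in the annotation.

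Bbc3 encodes PUMA, a BH3-only protein that neutralises the survival members of the BCL2 family. It stood at 15.5, 16.5, 0, 15.97 and 5.57 RPM in place replicates 1 to 5 and at 11.5, 15.1, 10.9 and 11.05 in silent replicates 1 to 4. The silent values lay close together, and the place values fell on both sides of them. Means were 10.7 ± 7.51 and 12.1 ± 2.02, with a log2 fold of -0.71 ± 1.08 SE (limma adjusted p = 0.952). The direction rests on 1 library: without place replicate 3, which had no reads, the fold was 0.04.

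Tnfrsf10b, the cell-surface death receptor for the ligand TRAIL, was low. Place libraries 1 to 3 had no reads, place replicates 4 and 5 stood at 3.05 and 0.0531 RPM, and silent replicates 1 to 4 at 0.0712, 5.78, 3.80 and 0.134. Only 3 libraries, 1 place and 2 silent, were above 1 RPM, so it did not pass the filter and was not tested.

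Aen is an exonuclease that takes part in p53-driven apoptosis. It stood at 1.44, 22.7, 0, 2.28 and 8.97 RPM in place replicates 1 to 5 and at 0, 1.40, 13.5 and 0.626 in silent replicates 1 to 4. Each group had 1 library without reads and 1 library far above most others. Means were 7.08 ± 9.39 and 3.89 ± 6.46, with a log2 fold of 0.72 ± 1.11 SE (limma adjusted p = 0.953). With 1 library left out it ran from 0.12, without place replicate 2, to 1.52, without silent replicate 3.

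Trp53inp1 encodes a nuclear stress protein that promotes p53 activity and autophagy. It stood at 0.0653, 21.3, 84.2, 7.42 and 27.1 RPM in place replicates 1 to 5 and at 15.6, 24.2, 0 and 55.0 in silent replicates 1 to 4. The value in place replicate 1 is a single read. Within the place group it thus ran from a single read to 84.2 RPM, and the groups overlapped over nearly their whole range. Means were 28.0 ± 33.2 and 23.7 ± 23.2, with a log2 fold of 0.14 ± 1.32 SE (limma adjusted p = 0.993).

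**Figure D2:**
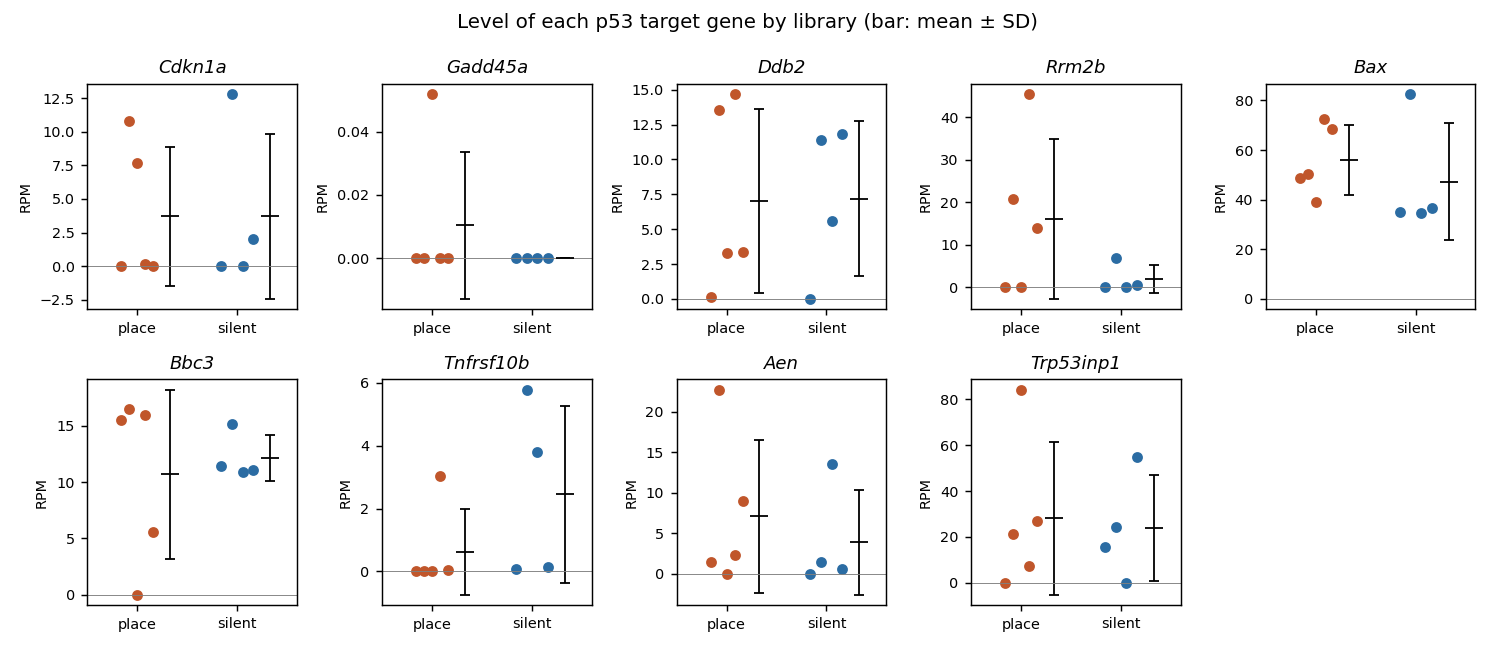
Level in RPM (vertical axis, a scale for each gene) of the 9 p53 target genes, 1 point per library, place in orange and silent in blue, with the mean and SD as a bar beside the points. The groups overlap in each of the 7 genes tested, and 3 of the 5 place libraries carry Rrm2b above every silent library.

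The 9 genes were high or without reads in different libraries. Silent replicate 1 had reads for 4 of the 9 genes, place replicates 1 and 3 and silent replicate 3 for 5, place replicates 2 and 5 for 7, and place replicate 4 and silent replicates 2 and 4 for 8. Silent replicate 2 held the highest level of all 9 libraries for Cdkn1a, Bax and Tnfrsf10b, and 8 of the 9 genes were above 1 RPM there. The summed level of the 9 genes was 160 RPM in silent replicate 2, 156 and 162 in place replicates 2 and 4, and 62.2 to 134 in the other 6 libraries. This sum is not scaled by gene length and is weighted to genes with many reads. Bax alone made up 82.6 of the 160 RPM in silent replicate 2. No library was high for every gene: place replicate 2, highest for Aen and Bbc3, had no Tnfrsf10b, and place replicate 3, highest for Trp53inp1, had no Bbc3, Aen or Rrm2b.

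Over all genes, the comparison of place with silent libraries called none. With limma, 0 of 14142 genes (0%) passed an adjusted p of 0.05, and 0 of the 7 members tested did. The test had little power here. In reads simulated with the spread of these data, it called 3.03% of genes changed 2-fold and 34.34% of those changed 4-fold. A count of 0 therefore cannot show that levels were equal. Before adjustment, 772 genes had a p under 0.05, 4.12% of those tested being higher in place and 1.34% lower, and 0 of the 7 members were among them. Voom on the recovered reads also called 0. When place replicate 1 was left out, Ddx3y and Eif2s3y, 2 Y-linked genes, passed with lower levels in the place group, and no member did. Groups that did not overlap were found in 1.22% of genes with place higher and in 0.636% with place lower, and in 0 of the 7 members. Of the 7, 5 had a positive fold, against 57.1% of all genes tested, and their median fold was 0.14, against 0.12 over all genes. With genes detected as a covariate 1 of the 7 was positive (median -0.92), and without place replicate 2 it was 2 of the 5 still tested (median -0.03). On the values as deposited it was 6 of 7 (median 0.82, all genes 0.22), and without place replicate 1 also 6 of 7 (median 0.51, all genes 0.16). With genes detected as a covariate and without place replicate 2 the median over all genes was -0.04 and 0.07, so the place of the members beside all genes depended on the setting.

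**Figure D3:**
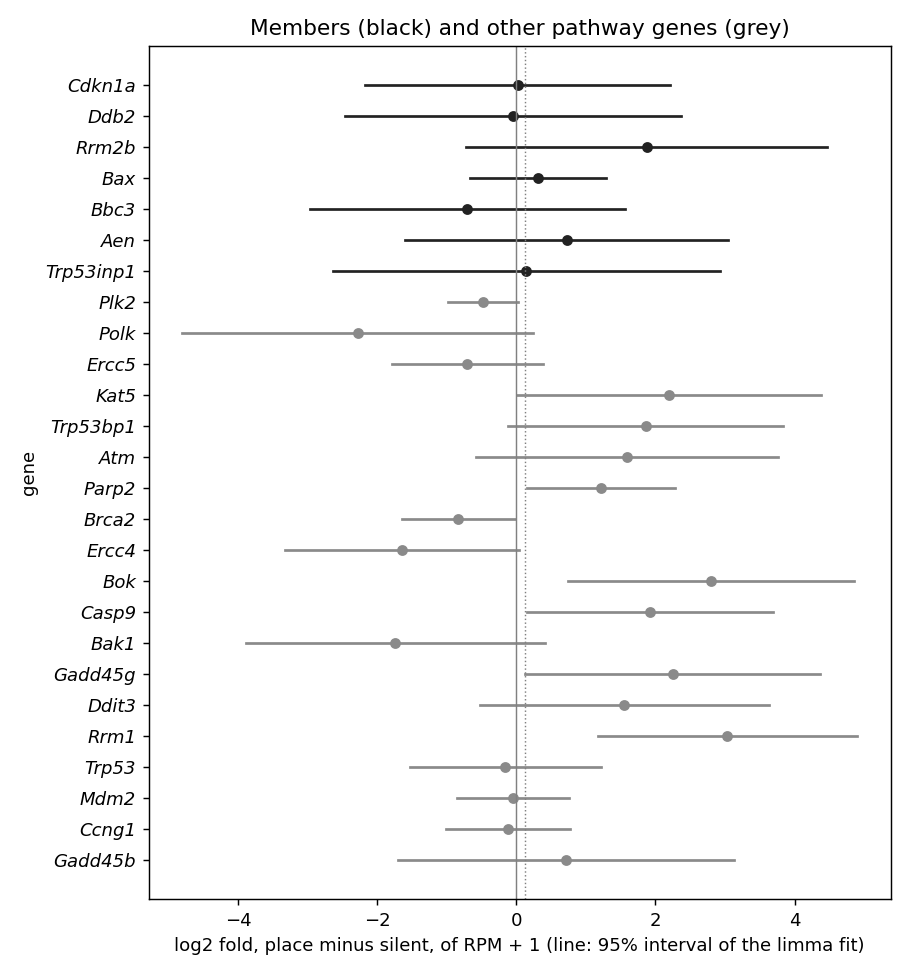
Log2 fold, place minus silent, of RPM + 1 (horizontal axis) with the 95% interval of the limma fit, for the 7 members tested (black) and the other pathway genes named in the text (grey, without Hspa1a, which had no reads in silent libraries). The dotted line is the median of all genes tested, 0.12, and the intervals of all 7 members span 0.

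The same was asked of p53 and of the genes that control it. Trp53, the gene of p53, stood at 12.5, 26.9, 44.5, 41.4 and 62.2 RPM in place replicates 1 to 5 and at 74.2, 57.3, 11.7 and 36.9 in silent replicates 1 to 4. Trp53 was thus present in every library, with overlapping groups (log2 fold -0.16 ± 0.65 SE, limma adjusted p = 0.986). Mdm2, which encodes its ubiquitin ligase and is itself a p53 target, averaged 116 ± 33.5 RPM in place and 128 ± 61.4 in silent libraries, with a fold of -0.05. Of the 22 measured genes in the list of p53 and its regulators, all were tested, 15 had positive and 7 negative folds (median 0.33), and 0 passed. Beside this list and those that follow, 57.1% of all genes tested had a positive fold, with a median of 0.12. Kat5, an acetyltransferase that modifies p53, had the smallest p of the list, at 12.4 ± 9.30 and 1.59 ± 1.66 RPM (log2 fold 2.19 ± 1.04 SE, limma adjusted p = 0.895). Next came Trp53bp1, a double-strand break adaptor, at 85.6 ± 29.7 and 51.6 ± 43.8 RPM, and the damage kinase gene Atm at 21.7 ± 10.8 and 11.1 ± 11.9. In Trp53bp1 and Atm the lowest library was silent replicate 1, at 0.0712 and 0.285 RPM, and without it their folds were 0.39 and 0.78 in place of 1.86 and 1.59. Exons of Kat5 and Trp53bp1 overlap genes on the opposite strand.

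Folds of other p53 targets went in both directions. Of 29 measured genes 20 were tested, 11 with positive and 9 with negative folds (median 0.13), and 0 passed. Before adjustment, 0 had a p under 0.05. Ccng1, a cyclin that is among the strongest p53 targets, averaged 60.8 ± 17.6 and 66.1 ± 22.05 RPM, from 32.5 to 97.2 over the 9 libraries. Plk2, a polo-like kinase that neurons also induce with activity, averaged 499 ± 120 and 702 ± 209 RPM (log2 fold -0.48 ± 0.24 SE, limma adjusted p = 0.895). Polk, a translesion polymerase, averaged 16.7 ± 19.6 and 34.3 ± 15.96 RPM and was without reads in place replicates 3 and 5. Ercc5, a nuclease of nucleotide excision repair, averaged 60.7 ± 33.05 and 84.9 ± 21.5.

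In the list of damage sensing and repair, 34 of 37 measured genes were tested, with 14 positive and 20 negative folds (median -0.13) and 0 past the threshold. Brca2, a gene of double-strand break repair, stood at 42.1, 66.0, 37.5, 58.3 and 67.7 RPM in place replicates 1 to 5 and at 92.9, 122, 78.3 and 91.9 in silent replicates 1 to 4. All silent libraries were above all place libraries, a layout that 0.636% of genes tested showed in this direction. The log2 fold was -0.83 ± 0.38 SE (limma adjusted p = 0.895). Parp2, a sensor of strand breaks, was even in place libraries, at 105 to 130 RPM, and uneven in silent ones, at 14.6 to 167. Ercc4, a nuclease partner of Ercc1, averaged 12.5 ± 8.67 in place and 37.9 ± 15.1 in silent libraries. An antisense gene overlaps Brca2 exons.

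Among BCL2 family and apoptosis genes 14 of 22 measured genes were tested, with 8 positive and 6 negative folds (median 0.04) and 0 past the threshold. Bok, a relative of Bax, stood at 11.6, 29.2, 11.2, 2.18 and 6.31 RPM in place replicates 1 to 5 and at 0, 2.04, 0.490 and 0 in silent replicates 1 to 4. Its groups did not overlap, though place replicate 4 and silent replicate 2 were close (log2 fold 2.80 ± 0.98 SE, limma adjusted p = 0.894). This layout, with place higher, was found in 1.22% of genes tested. Casp9, the initiator caspase that acts after mitochondrial release, averaged 42.4 ± 24.7 and 16.8 ± 22.1 RPM, and its exons overlap pancreatic protease genes on the opposite strand. Bak1, the other pore-forming relative of Bax, had a negative fold (-1.74 ± 1.03 SE), at 3.07 ± 2.58 and 11.3 ± 6.79.

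Relatives of the members included Rrm1, the gene with the smallest p of the pathway lists. Of 12 measured relatives 9 were tested, 6 with positive and 3 with negative folds (median 0.38), and 0 passed. Before adjustment, 3 had a p under 0.05, Rrm1, Bok and Gadd45g, all with higher values in place, against 4.12% of all genes in that direction. Bok is also in the list of apoptosis genes and Gadd45g in that of GADD45 relatives, so the counts of these lists share genes. Rrm1, the large ribonucleotide reductase subunit that pairs with the product of Rrm2b, stood at 3.59, 10.3, 17.9, 4.82 and 12.1 RPM in place replicates 1 to 5 and at 0.0712, 0.0997, 0.490 and 0 in silent replicates 1 to 4. Every place library was above every silent one, as in 1.22% of genes tested. Its 5 libraries at 1 RPM or more were all place. Rrm1 thus passed the filter only through the group where it is high, which favours such a layout. At a minimum of 5 RPM it was not tested. The log2 fold was 3.03 ± 0.89 SE (limma adjusted p = 0.894), and 3.01 with genes detected as a covariate. Rrm1 and Rrm2b differed in layout, since place replicates 1 and 3 had Rrm1 and no Rrm2b.

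Gadd45g, a relative of Gadd45a and likewise an inducible stress protein, stood at 11.4, 8.54, 23.5, 10.6 and 14.3 RPM in place replicates 1 to 5 and at 2.14, 2.79, 5.09 and 0 in silent replicates 1 to 4. The groups did not overlap, with place higher as in 1.22% of genes tested (log2 fold 2.25 ± 1.01 SE, limma adjusted p = 0.895). Gadd45b, the third relative, overlapped, at 6.26 to 20.3 in place and 0 to 75.5 in silent libraries, with silent replicate 1 the highest. The 3 related genes therefore had 3 layouts: Gadd45a was nearly absent, Gadd45b overlapped, and Gadd45g was higher in every place library.

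Of the list of GADD45 relatives and other stress-induced genes, 16 of 17 measured genes were tested, 14 with positive and 2 with negative folds (median 0.33, the same with Hspa1a at its bound), and 0 passed. Over all genes tested 57.1% had a positive fold (median 0.12), and the list was not tested against that share. Hspa1a, an inducible heat-shock chaperone, stood at 11.8, 5.11, 50.3, 10.1 and 0 RPM in place replicates 1 to 5 and had no reads in the 4 silent libraries. It overlapped only through place replicate 5, also without reads (limma adjusted p = 0.894), and its near-identical copy Hspa1b can share its reads. The 4 libraries with Hspa1a at 1 RPM or more were all place. It thus passed the filter only through the group where it is high, which favours a positive fold. Ddit3, the transcription factor CHOP of the unfolded protein response, stood at 11.6 to 15.997 in place and 0.947 to 10.6 in silent libraries. Its groups did not overlap, with place higher as in 1.22% of genes tested (log2 fold 1.55 ± 0.99 SE, limma adjusted p = 0.895). Mars lies on the opposite strand of Ddit3. Oligodendrocyte markers were also higher in several place libraries, and astrocyte markers in place replicate 3. Microglia markers were not, at 8.60 to 255 RPM in place and 28.0 to 300.3 in silent libraries (4 positive and 2 negative folds). Endothelial markers, of which 1 was tested, summed to 7.32 to 41.9 RPM in place and 0.214 to 5.90 in silent libraries. Of the oligodendrocyte markers, 10 of 10 tested had positive folds (median 2.12, 0 past the threshold), with summed levels of 1380, 2036, 3267, 291 and 193 RPM in place replicates 1 to 5 against at most 549 in silent libraries. Of the astrocyte markers, 6 of 6 tested had positive folds (median 1.90, 0 past the threshold), with the sum at 2829 RPM in place replicate 3 and at most 584 in the other libraries. Hspa1a, Gadd45g and Rrm1 were each highest in place replicate 3 and Bok in place replicate 2, the libraries with the most oligodendrocyte markers. The part of other cell types in the levels of Hspa1a, Gadd45g, Rrm1, Bok and Ddit3 was not tested. Without place replicate 3 the folds of Rrm1, Bok and Gadd45g were 2.78, 2.73 and 2.05, and Hspa1a did not pass the filter. Hspa1a also did not pass it without place replicate 1, 2 or 4.

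**Figure D4:**
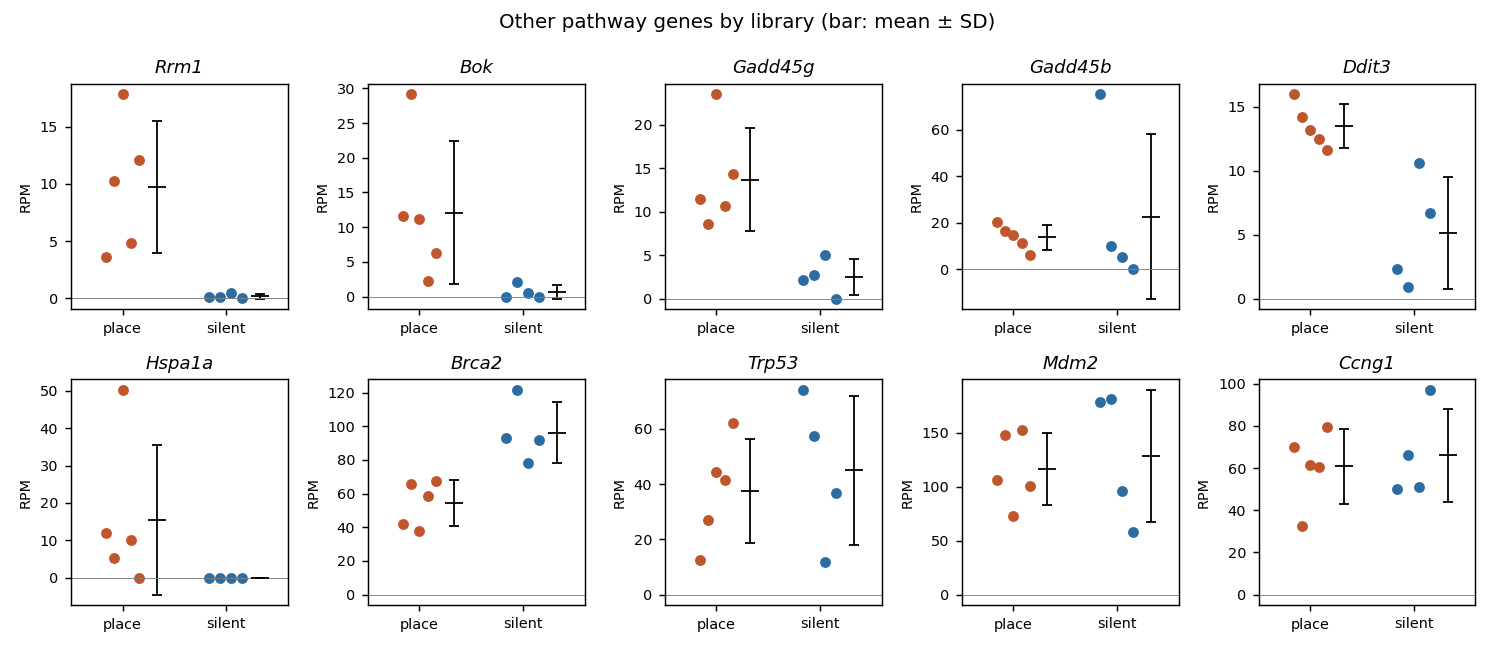
Level in RPM (vertical axis, a scale for each gene) of 10 other genes of the pathway and its relatives, 1 point per library, place in orange and silent in blue, with the mean and SD as a bar. Rrm1, Bok, Gadd45g and Ddit3 are higher in all place than in all silent libraries (1.22% of all genes tested) and Brca2 is lower (0.636%). These genes had the smallest p values of their lists in the same fit, a choice that favours such separation. Rrm1 and Hspa1a passed the filter through place libraries alone. Trp53, Mdm2, Ccng1 and Gadd45b overlap, and none passed the threshold over all genes.

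The genes most like Cdkn1a over the 9 libraries were Mcm6, a subunit of the replicative helicase, Metrn, a secreted neurotrophic factor, and Zfp992, a zinc finger gene. Likeness was the root mean square difference of centred log2(RPM + 1), at 0.36 for Mcm6, 0.65 for Metrn and 0.67 for Zfp992. The median over the 8953 genes compared was 2.06. The 3 genes were picked as the smallest of these differences, so their place below the median follows from the choice and is no evidence of a link. Mcm6 stood at 7.66, 4.83, 17.1 and 3.85 RPM in place replicates 2 and 3 and silent replicates 2 and 4, the 4 libraries in which Cdkn1a was above 1 RPM, and at most 0.142 in the rest. Of the 5 other members that entered this comparison (Bbc3, Ddb2, Aen, Rrm2b and Trp53inp1), the nearest was Ddb2, at rank 714 and a difference of 1.51.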

How the data were processed

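RNA of 9 libraries was sequenced, and per the submitters' processing notes STAR, HTSeq and the GRCm39 build were used. No label names the annotation, the strand setting or the tool of normalization. The authors deposited a normalized read signal per gene symbol, which carried 1 factor per gene and none per library. Dividing by it returned whole reads (within 0.0011 of the printed value) for 30930 of 31052 genes (99.607%), all 9 members included. Of the rest, 120 genes were recovered up to a common divisor and 2 were not recovered. On simulated reads of genes so recovered, built with the same factors, 100.0% of 1918 genes came back exactly. This checks the working back only and cannot show which factor the authors used.

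Reads were scaled to 1000000 per library (RPM). Genes at 1 RPM or more in at least 4 libraries were tested on log2(RPM + 1), which understates changes of low genes, with limma 3.58.1 in R 4.3.3 (intensity trend, no covariate, Benjamini-Hochberg adjustment over 14142 genes, threshold 0.05). Unadjusted p values are from the same limma fit. The whole-read test uses limma's voom as an alternative. Replicate numbers follow accession order and only name libraries. Every title has a mouse designation that ends in a number of its own, and no label says whether that number is an animal. P-values measure the spread between libraries, which may in part be technical.

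Members and gene lists were chosen with earlier results of these data known. Named genes are the 9 members, the 3 genes with the smallest p of each other list, Trp53, Mdm2, Ccng1, Gadd45b, Gadd45g and the 3 genes most like Cdkn1a among tested genes with an SD of at least a set share of its own. Naming by the smallest p favours genes whose groups separate. Ddx3y, Eif2s3y and Hexim2 were named after their values were seen. Summed marker levels of the remaining lists were 8.60 to 255 RPM in place and 28.0 to 300.3 in silent libraries for microglia, 27.6 to 209 and 66.1 to 767 for interneurons, and 7.32 to 41.9 and 0.214 to 5.90 for endothelial cells. Alternatives were other scalings, pseudocounts, filters and tests, each library left out, and the number of genes detected as a covariate.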

Additional observations from a re-analysis of the deposited data

Results flagged for a closer look

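In 10 of 56 gene and group pairs, over 29 genes, 1 library stood apart from the rest of its group by its gap to the next value, where chance gives about 1 in 20 for normally distributed values. Over all genes tested, with their many values at or near 0, the share was 12.4% of 28219 pairs (10.6% in place, 14.3% in silent), so 10 of 56 cannot be read as an excess. Of these, 4 were silent replicate 2, which was the highest of its group for Cdkn1a (12.8 RPM, next 2.06), Bax (82.6, next 36.5), Bbc3 (15.1, next 11.5) and Rrm2b (6.78, next 0.581). Over all 14142 genes tested, silent replicate 2 stood apart as the highest of its group in 510. The 4 genes named here were not tested against that count. Silent replicate 3 stood apart for Aen, at 13.5 RPM with the next at 1.40. Place replicate 4 stood apart for Tnfrsf10b, at 3.05 RPM with the next at 0.0531, and place replicate 3 for Gadd45a, at 0.0519 RPM, which is 1 read against none in the rest, so that the gap is the whole range. Among the other pathway genes, place replicate 5 stood apart for Casp9 at 85.5 RPM (next 40.4), place replicate 3 for Hspa1a at 50.3 (next 11.8), and silent replicate 1 for Gadd45b at 75.5 (next 10.1).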

How the results depend on the processing

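No paired analysis was possible because the labels give no shared replicate numbers. The count of 0 genes past the threshold held in 18 of 20 alternatives. Limma without its intensity trend called 1 gene (Hexim2, lower in place), and leaving out 1 library gave 0 to 2. No member passed under any alternative run. The 5 members with positive folds became 3 (of 5 tested) at a minimum of 5 RPM, 1 with genes detected as a covariate, added after the data were seen, and 2 to 6 with 1 library left out. Their median fold of 0.14 became 0.82 on the values as deposited (all genes 0.22), 0.48 with voom, 0.32 with a pseudocount of 0.1 RPM and -0.92 with genes detected, and lay between -0.03 and 0.51 with 1 library left out. Quantile normalization moved the median of all genes from 0.12 to -0.01.

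Signs turned in 23 of 130 values for members and in 11 of 395 for the other named genes. Cdkn1a was at -0.50 with quantile normalization, -0.0041 with a pseudocount of 0.1 RPM, -0.078 with voom and -1.01 with genes detected. Ddb2 was at 0.82 on the values as deposited, 0.26 with the pseudocount of 0.1 and 0.48 with voom. With genes detected Bax, Aen, Rrm2b and Ccng1 were at -0.085, -0.92, -0.70 and 0.14, and Mdm2 was at 0.014 with voom. With 1 library left out the ranges were -0.43 to 0.36 for Cdkn1a (5 of 9 fits, the others below the filter), -0.89 to 0.51 for Ddb2, -1.07 to 1.07 for Trp53inp1, -0.99 to 0.040 for Bbc3, -0.38 to 0.17 for Mdm2, -0.24 to 0.082 for Ccng1, -0.69 to 0.17 for Trp53 and -0.31 to 1.77 for Gadd45b. The cause of these turns was not tested. The lowest adjusted p of Rrm1 over its alternatives was 0.120 (limma).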
